A study of Mus musculus with 16 samples.

Results

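This section describes 2136 accessible regions that were called in islets of 1 classical inbred mouse strain and in no other strain. The data were ATAC-seq peak lists, in which a transposase cuts open chromatin so that accessible DNA collects reads, from pancreatic islets of 8 inbred strains with 1 female and 1 male sample each. The classical strains were 129S1_SvImJ (129), A_J (AJ), C57BL/6J (B6), NOD_ShiLtJ (NOD) and NZO_HlLtJ (NZO), and the wild-derived strains were CAST_EiJ (CAST), PWK_PhJ (PWK) and WSB_EiJ (WSB). No treatment is named in the labels, and the age and number of the animals behind a sample are not given in the sources used here. All reads were aligned to the B6 reference, whatever their strain. Overlapping peaks of the 16 lists on chromosomes 1 to 19 were merged into 347712 regions, and a region was chosen where both samples of exactly 1 classical strain had a peak and the other 14 samples had none. The members are thus selected on peak presence in these lists, and their counts and the absence of peaks elsewhere are a description with no test. A female and a male are the only samples of a strain, so the spread between them holds sex, animal and library together.

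Islets hold the insulin-secreting beta cells, the glucagon-secreting alpha cells and smaller endocrine populations, with vessels, stroma and resident macrophages between them. Their regulatory DNA is bound by factors such as PDX1, MAFA, NEUROD1 and the FOXA proteins, while AP-1 and PU.1 mark open chromatin of stimulated and of myeloid cells. Inbred strains differ in sequence, in copies of duplicated segments and in insertions of mobile repeats, and each kind of difference can change both chromatin and how reads align.

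The following windows carry the sequence findings given further on. Each is the 300 bases around the midpoint of the member with the highest lower scaled signal of its strain, from the RefSeq GRCm38 sequence of the B6 genome, plus strand, with letters that match a searched motif of 7 or more bases in capitals. The 129 and B6 windows are set together because they share a repeat, and the AJ and NOD windows because these members stood highest of all.
129 member window, chr8:100518684-100518983, capitals FOXA: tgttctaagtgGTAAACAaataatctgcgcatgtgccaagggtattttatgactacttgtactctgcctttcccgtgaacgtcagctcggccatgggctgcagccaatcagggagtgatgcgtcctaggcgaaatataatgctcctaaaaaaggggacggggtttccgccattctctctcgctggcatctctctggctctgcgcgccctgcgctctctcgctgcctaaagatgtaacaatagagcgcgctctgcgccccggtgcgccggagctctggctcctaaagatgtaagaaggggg
B6 member window, chr2:123754713-123755012, capitals FOXA: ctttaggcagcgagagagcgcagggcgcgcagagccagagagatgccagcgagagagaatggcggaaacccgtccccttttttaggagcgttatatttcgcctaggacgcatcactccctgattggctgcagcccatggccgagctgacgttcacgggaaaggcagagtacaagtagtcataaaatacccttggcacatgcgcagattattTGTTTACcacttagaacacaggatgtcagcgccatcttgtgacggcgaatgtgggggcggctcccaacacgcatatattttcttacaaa
AJ member window, chr16:58161430-58161729, capitals MAF: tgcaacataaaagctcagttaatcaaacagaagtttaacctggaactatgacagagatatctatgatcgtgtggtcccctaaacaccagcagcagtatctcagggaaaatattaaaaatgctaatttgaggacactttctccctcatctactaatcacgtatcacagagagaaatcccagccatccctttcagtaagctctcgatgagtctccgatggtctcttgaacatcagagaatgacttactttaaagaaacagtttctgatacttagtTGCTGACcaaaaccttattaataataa
NOD member window, chr1:5000870-5001169, no motif in capitals: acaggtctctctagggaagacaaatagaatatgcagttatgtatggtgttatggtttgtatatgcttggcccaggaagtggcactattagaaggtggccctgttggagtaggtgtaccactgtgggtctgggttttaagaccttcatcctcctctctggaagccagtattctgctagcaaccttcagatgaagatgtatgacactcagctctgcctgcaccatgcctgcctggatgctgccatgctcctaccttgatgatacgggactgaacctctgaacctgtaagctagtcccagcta
The 129 and B6 windows, on different chromosomes, shared an unbroken run of 139 bases once 1 of them was read on the opposite strand. The longest run shared by any other pair of these 4 windows was 9 bases. Both the 129 and the B6 window lay wholly in soft-masked bases, the lower-case letters by which the reference marks repeats.

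Autosomal peaks per list numbered 77887 to 167051, fewest for the male of AJ and most for the female of WSB. The study states its reads as a mean over all samples, and read totals of single samples were not used here, so a missing peak says only that nothing passed the peak caller's threshold. Scaled summit signal below is the deposited signal at the summit of a peak divided by the sample's median over the 40940 regions called in all 16 samples, so that 1 is a typical shared region. Those sample medians ran from 32 to 136. The NZO male stood apart from the other classical samples with 141307 peaks and 33071 regions called in it alone, against 1576 to 7428 in the other 9 classical samples.

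NZO held the most members. NZO had 1121 members (0.322% of all merged regions), B6 393 (0.113%), NOD 223 (0.0641%), AJ 217 (0.0624%) and 129 182 (0.0523%). As a share of the regions called in both samples of the strain, members were 1.46% in NZO and between 0.271% and 0.488% in the other 4. The wild-derived strains had more regions by the same rule, with 3385 in PWK, 3524 in WSB and 6249 in CAST.

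The order of the strains depended on how many peaks each list was allowed. With every list held to its 77887 most significant peaks, the counts were 669 in NZO, 523 in NOD, 400 in AJ, 299 in 129 and 274 in B6. With the peaks at or above the median −log10 p of each list, they were 256 in NZO, 194 in B6, 107 in NOD, 49 in AJ and 25 in 129. NZO had the most members in each of these counts, whereas NOD moved above B6 once the lists were of equal length. Where the authors' strain lists at an irreproducible discovery rate of 0.05 replaced the sample lists, NZO was lowest with 130 and B6 highest with 729.

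**Figure D1:**
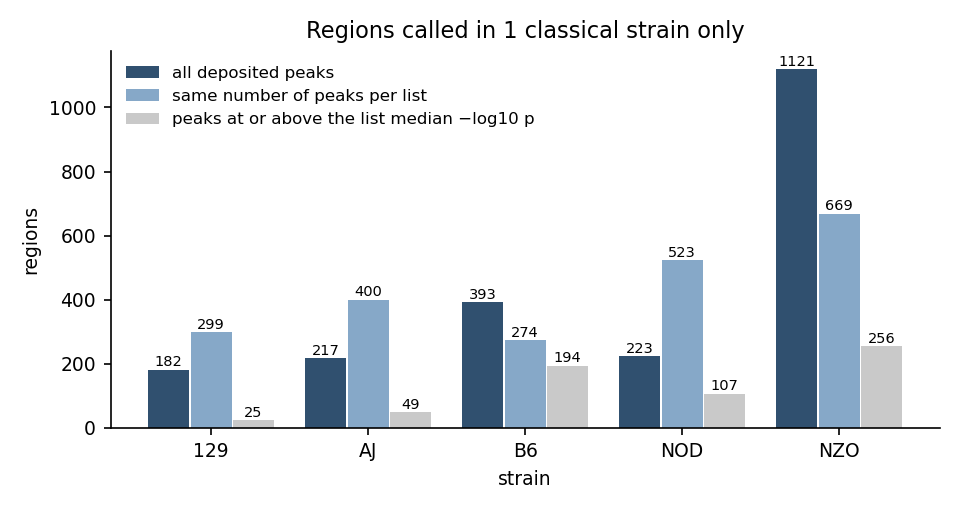
Number of regions called in both samples of 1 classical strain and in no other sample (y axis), by strain (x axis), from all deposited peaks, from lists of equal length and from peaks at or above the median −log10 p of each list. NZO is highest in all 3 counts, from 1121 down to 256.

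Members were fainter and narrower than regions called in all 16 samples, which the rule favours. Shared regions merge peaks of 16 lists and members peaks of 2, and no member passed the threshold in the other 14 samples. Members were not narrower than all merged regions. The median width was 232 bases over all members and 200 to 260 by strain, against 1144.5 for regions called in all 16 samples and 200 over all merged regions. Median scaled signal lay between 0.179 and 0.328 in the 5 female samples and between 0.203 and 0.436 in the 5 male samples. The lower of the 2 scaled signals exceeded 1 in 8 members, which were 5 of NOD, 2 of AJ and 1 of NZO. Of the 2136 members, 66 (3.09%) overlapped the authors' strain list at an irreproducible discovery rate of 0.05, from 4 of 1121 in NZO to 20 of 223 in NOD. The matching share over all merged regions is not given here, so no comparison is drawn.

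The regions just outside the rule had signals near those of the members. In 2096 regions a classical strain had both peaks and 1 further sample had a peak too, and that sample was the WSB female in 493 of them (23.5%) and the PWK male in 190 (9.06%). For NZO these regions had median scaled signals of 0.210 in the female, 0.400 in the male and 0.161 in the further sample, beside 0.210 and 0.436 in the NZO members. For B6 they had 0.190, 0.205 and 0.182, beside 0.179 and 0.205 in the B6 members. The further peak was thus about as high as the pair of peaks in B6 and lower than the male peak in NZO.

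The highest members of NOD and AJ stood well above the typical shared region in both sexes. The NOD member at chr1:5000677-5001362, in an intron of Rgs20, a regulator of G-protein signalling, had summit signals of 336 in the female and 274 in the male, which were 3.91 and 3.34 after scaling. Other NOD members had scaled signals of 2.07 and 3.05 at chr7:102642719-102643129, 2.471 kb from the start of the olfactory receptor gene Olfr554, and of 2.29 and 2.05 at chr17:88709730-88710416, in an intron of Gtf2a1l. The fourth, at chr2:145121879-145122999, lay between genes with 2.05 and 2.15. All 4 exceeded the shared median in the female and in the male, and they were picked for their height.

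In AJ, 1 member stood far above the rest. It lay between genes at chr16:58161042-58162118, with summit signals of 178 in the female and 204 in the male, or 2.74 and 3.71 scaled. The next AJ members had 1.02 and 1.45 at chr10:115691913-115692294, 1.05 and 0.891 at chr1:35522861-35523545, and 0.554 and 0.636 at chr13:59909075-59909148, within 3 kb of the start of Gm19866. From the first to the fourth the lower value fell by more than 4 times.

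B6 and 129 had no member above the shared median in both sexes. The highest B6 members had 1.01 in the female and 0.964 in the male at chr2:123754671-123755054, and 0.940 and 1.00 at chr12:20512106-20512740, 0.214 kb from the start of Gm48669. Another, at chr1:146805436-146806705, covered the start of A230059L01Rik beside Brinp3 and had 0.917 and 1.65. The fourth lay in an exon of Adcy2, an adenylyl cyclase, at chr13:68730103-68730352, with 0.702 and 1.01. In 129 the highest members had 1.59 and 0.928 at chr8:100518771-100518896, 2.03 and 0.913 at chr15:37203211-37203433, 0.897 and 0.754 in an intron of Stox2 at chr8:47312235-47312667, and 1.41 and 0.71 at chr5:68220827-68221769. The 129 female was above the male in all 4, whereas the B6 male was above the female in 3 of 4.

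The NZO members named by the same measure were lower. They had scaled signals of 0.605 in the female and 0.745 in the male in an exon of Agbl2 at chr2:90816437-90817063, 0.556 and 0.691 at chr3:9159037-9159343, and 0.593 and 0.527 at chr5:117071215-117071674. The last of these was not in the NZO strain list at an irreproducible discovery rate of 0.05, whereas all other members named by this measure were in the list of their strain.

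After scaling, female and male signals of members differed most in NZO. Median summit signals before scaling were 17 in the female and 24 in the male in NZO, and 19 and 14 in 129. The shared medians that divided them were 81 and 55 in NZO and 58 and 69 in 129. The median log2 ratio of the female to the male scaled signal was −1.07 in NZO, −0.49 in AJ, −0.17 in B6, 0.10 in NOD and 0.77 in 129. The mean over the 5 strains was −0.17 ± 0.69 (SD, n = 5), which an exact sign-flip permutation test over strains, two-sided, did not separate from 0 (p = 0.625, where the smallest possible is 0.063). The female was higher in 152 of 182 members of 129 and in 175 of 1121 members of NZO. In NZO, 185 members (16.5%) exceeded the shared median in the male and 1 did in the female, and the male value was at least 3 times the female value in 383. In no other classical strain did more than 6 members exceed the shared median in either sample. The rank correlation of the 2 sexes across members was 0.247 in NZO and between 0.482 and 0.565 in the others, given as a description across regions that share their libraries.

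**Figure D2:**
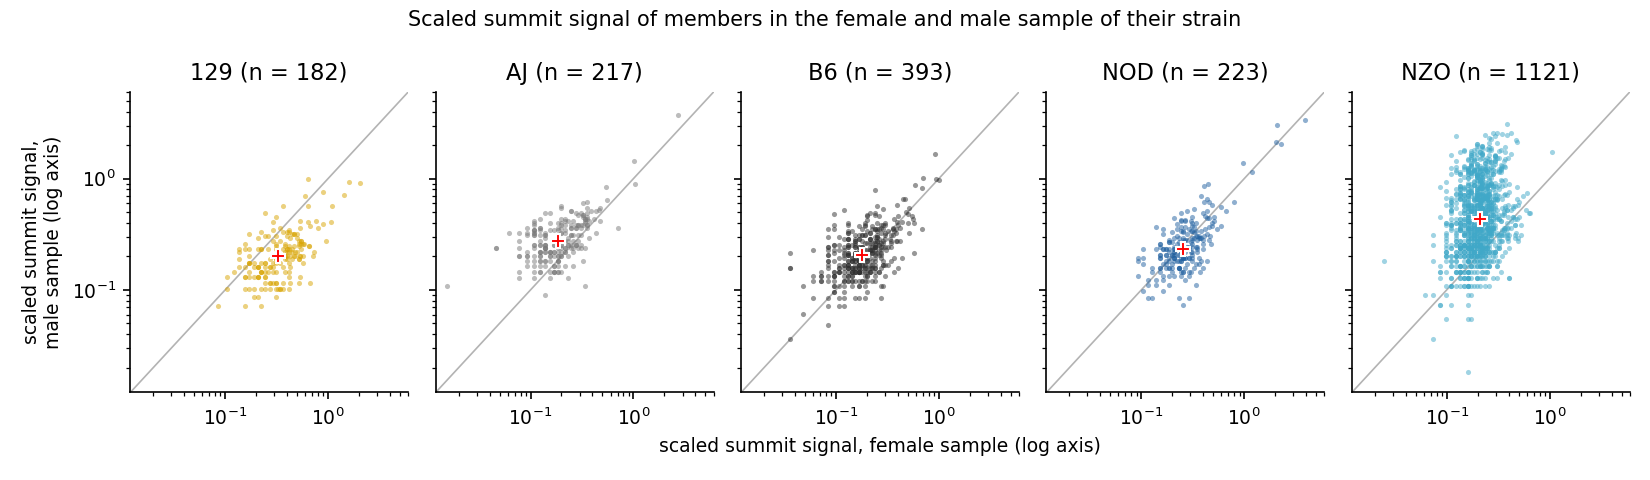
Scaled summit signal of each member in the female (x axis) and male sample (y axis) of its own strain, both on log axes, where 1 is the median of regions called in all 16 samples. The red cross marks the medians and the line marks equal values; NZO members spread upward to 3.09 in the male while 1 passes 1 in the female.

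The promoter share of members was below that of shared regions in each of the 5 strains, and around that of all merged regions. Promoters, taken as within 3 kb of a transcription start in GENCODE M21, held 21.98% of the 129 members, 24.4% of AJ, 17.6% of B6, 24.2% of NOD and 18.9% of NZO, against 41.0% of the regions called in all 16 samples. The difference was −19.5 ± 3.10 percentage points (SD, n = 5 strains), lower in 5 of 5, and an exact sign-flip test over strains gave p = 0.063, the smallest it can give. Over all 347712 merged regions the promoter share was 21.6%, within the range of the 5 member sets. Shared regions were wider than members, and the part of width in the promoter share was not tested. Intergenic members made up 36.3% in 129, 40.4% in NOD, 42.5% in NZO, 52.5% in AJ and 52.7% in B6.

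Sequence content varied between the sets, with the most CpG-rich windows in B6 and the fewest repeat bases in NZO. CpG-rich windows, with at least 50% GC and an observed to expected CpG ratio of at least 0.6, were 7.12% of B6 members, 2.69% of NOD, 1.65% of 129, 0.535% of NZO and none of the 217 of AJ. Soft-masked repeat bases made up 17.2% of the windows in NZO and from 29.9% in B6 to 36.7% in AJ, beside 22.4% over all regions and 11.9% in shared regions. The 5 classical sets were compared with regions called in 1 wild-derived strain only in 7 measures of annotation and sequence. No measure was separated beyond the spread between strains (exact permutation test, two-sided, adjusted p = 0.929 for each). The test ran over the 56 ways to draw 5 of 8 strains, and its smallest possible unadjusted p is 0.0179. After adjustment, 1 differing measure alone could not have passed 0.05. The repeat share was 29.3% ± 7.3 (SD, n = 5) in classical and 30.1% ± 12.4 (n = 3) in wild-derived sets.

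The repeat shared by the printed 129 and B6 windows recurred among the B6 members. A run of at least 20 bases of the 129 window, on either strand, was found in 26 of the 393 B6 members (6.62%), 3 of 182 in 129, 2 of 223 in NOD and none in AJ or NZO. The same runs were in 0.145% of all merged regions and in 1 of the 40940 regions called in all 16 samples. Among wild-derived single-strain regions they were in 63 of 3385 in PWK (1.86%), 26 of 6249 in CAST and 1 of 3524 in WSB. The 26 B6 members had median scaled signals of 0.405 in the female and 0.398 in the male, above the 0.179 and 0.205 of all B6 members. A stretch of the printed NOD window, which was 80.3% soft-masked, recurred in 608 regions in all but in 1 NOD member, its own. The AJ window shared no such run with any other region.

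FOXA motifs were most frequent in the B6 members. The FOXA motif TGTTTAC, searched on both strands of 300-base windows, was present in 14.2% of B6 members (56 of 393), against 3.69% to 5.71% in the other 4 sets, 6.43% of all regions and 6.58% of shared regions. All 26 B6 members that shared a run with the printed repeat held it. Among the 367 B6 members without such a run, 8.17% held the motif. Regions called in 1 wild-derived strain only held it in 8.23% in WSB, 6.50% in PWK and 6.39% in CAST. FOXA factors open chromatin in endoderm-derived cells, and a match of letters does not show that they bind here.

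AP-1 and PU.1 motifs were most frequent in the NZO members. The AP-1 motif TGANTCA was present in 29.3% of NZO members (Wilson 95% interval 26.8 to 32.1), in 12.5% of B6 members (9.56 to 16.1) and in 6.73% to 7.69% in the other 3 sets, with 17.3% over all regions and 11.9% in shared regions. The PU.1 motif GAGGAAGT was in 6.42% of NZO members and in 0.461% to 3.59% of the others, beside 2.49% over all regions. The RUNX motif TGTGGTT was in 9.19% of NZO members and in 4.15% to 6.36% of the others, beside 7.12% over all regions. PU.1, encoded by Spi1, and RUNX factors direct blood cell genes, and AP-1 is the FOS and JUN pair of stimulated cells. These intervals cover counting error only, and neighbouring members are not independent.

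A high AP-1 share was also seen in 1 wild-derived strain, whereas the PU.1 share was not. Regions called in WSB only held AP-1 in 32.5% and PU.1 in 1.73%. With lists of equal length, the NZO members held AP-1 in 38.1% and PU.1 in 6.88%. In NZO members at or above the median signal of the male sample AP-1 was in 38.1% and PU.1 in 8.44%, and in those below it in 20.3% and 4.35%. Divided at the median of the female sample instead, AP-1 was in 31.2% and 27.5%.

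**Figure D3:**
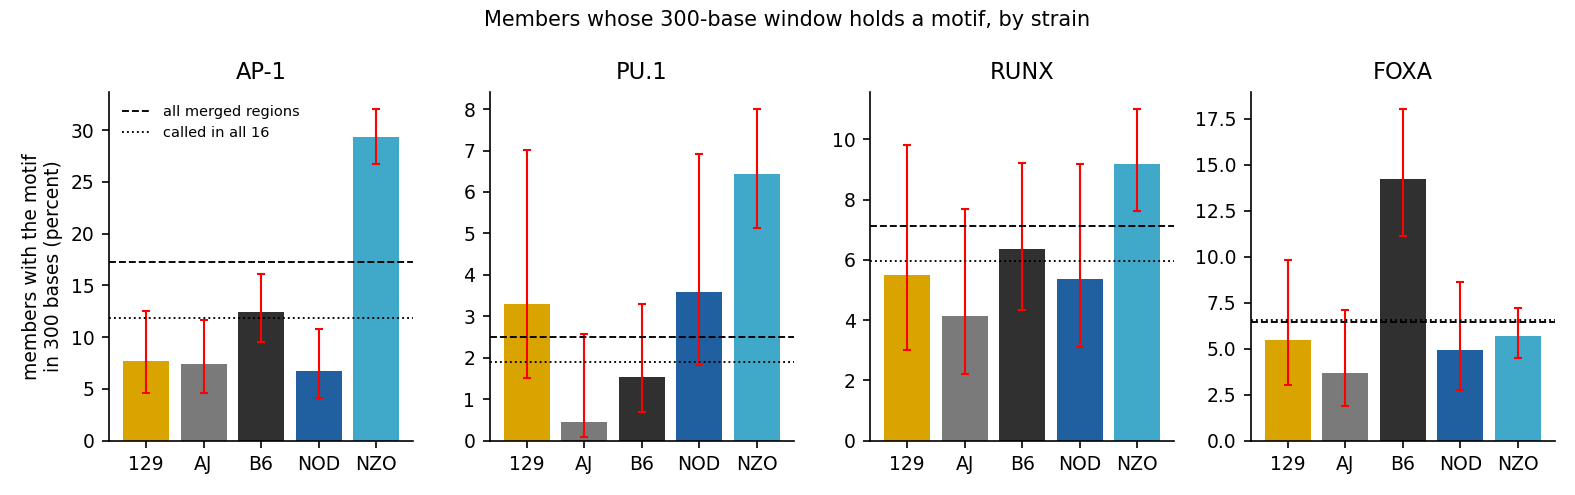
Share of members whose 300-base window holds the AP-1, PU.1, RUNX or FOXA motif on either strand (y axis, percent), by strain (x axis), with Wilson 95% intervals in red. Dashed and dotted lines give the share over all merged regions and over regions called in all 16 samples; NZO is highest for AP-1 at 29.3% and PU.1 at 6.42%, and B6 for FOXA at 14.2%.

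The remaining 12 of the 16 motifs searched are given over all members. The MAF motif TGCTGAC was in 7.44% of members and 6.44% of all regions, and the NEUROD1 motif CAGATGG in 7.68% and 8.07%. The homeodomain core TAATTA, which overlaps sites of PDX1 and NKX6-1, was in 7.12% and 9.61%, and the GATA motif, AGATAA, in 15.4% and 17.8%. The NKX2-2 motif CCACTTGA was in 0.749% and 1.01%, RFX (GTTGCCAT) in 1.26% and 1.24%, HNF1 (GTTAATNAT) in 1.69% and 1.49%, and CRE (TGACGTCA) in 0.375% and 0.378%. Among motifs of promoters and insulators, SP (GGGGCGGGG) was in 0.562% of members, 1.01% of all regions and 3.68% of shared regions, and ETS (CCGGAAGT) in 0.609%, 0.414% and 1.37%. CTCF (CCAGGGGGC) was in 0.140%, 0.420% and 0.894%, and NRF1 (GCGCATGCG) in 0.0468%, 0.114% and 0.491%. By strain, MAF was in 10.3% of NOD members and GATA in 11.1% of AJ members.

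The NZO male sample had the highest summed signal at promoters of leukocyte genes, the list that includes the gene of PU.1, and of some other lists. Of 45 autosomal leukocyte genes, 28 had a peak within 3 kb of a start in the NZO male, 15 in the NZO female and 10 to 21 in the other 14 samples. The summed scaled signal over the list was 25.5 in the NZO male, 13.0 in the NZO female and 10.6 to 16.4 in the others. The NZO male was the highest of the 16 samples for 19 of the 45 genes. The matching share over the promoters of all genes is not given here, so this count has no background to be set against.

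The genes concerned, named after their values were seen, included markers of macrophages and of lymphoid cells. Peaks at Itgam (0.291 scaled), Itgax (0.527), Adgre1 (0.436), which encodes F4/80, Lyz2 (0.382) and Laptm5 (0.782) were listed in the NZO male and in no other of the 16 samples. Spi1 had 0.509 in the NZO male and was listed in 1 other sample at 0.142, and the pan-leukocyte gene Ptprc had 0.491 against 0.222 in the NZO female and at most 0.400 elsewhere. The macrophage gene Csf1r had 0.509 in the NZO male but had a peak in 6 other samples too, at up to 0.548. Among lymphoid genes Il7r had 1.09 against at most 0.591 elsewhere, Runx3 had 0.400 in this sample alone, and Tcf7 and Cd28 had 0.309 and 0.327 against at most 0.283 and 0.326. The lymphocyte markers Cd3g, Cd4, Cd8a, Cd8b1, Ms4a1 and Cd79b had no peak in any sample, and Cd3e none in NZO, whereas the T cell markers Cd3d and Cd2 had 0.655 and 0.182 in the NZO male. Other lists were also high in this sample, since it had the highest value for 13 of 27 interferon and antigen presentation genes, 9 of 20 acinar genes, 6 of 12 duct genes, 7 of 17 mouse diabetes genes, 4 of 13 alpha, delta and PP cell genes, 11 of 49 type 2 diabetes genes, 4 of 20 endothelial and stromal genes and 2 of 25 beta cell genes. The beta cell list had a peak at 24 or 25 of 25 genes in all 16 samples.

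AP-1, PU.1 and RUNX were also most frequent in regions called in the NZO male alone, among the regions called in 1 sample alone, with an AP-1 share below that of NZO members. Of these 33071 regions, 24.4% held AP-1, 6.28% PU.1 and 9.15% RUNX. Over the other 15 samples, regions called in 1 sample alone held AP-1 in 7.54% to 21.6%, PU.1 in 1.32% to 2.32% and RUNX in 5.80% to 7.39%. In the 3073 regions called in the NZO female alone, PU.1 was in 1.92%. The part of blood cells in the number and the signal of NZO members was not tested, and a larger share of such cells and a more open state of the same cells cannot be told apart in bulk islets.

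**Figure D4:**
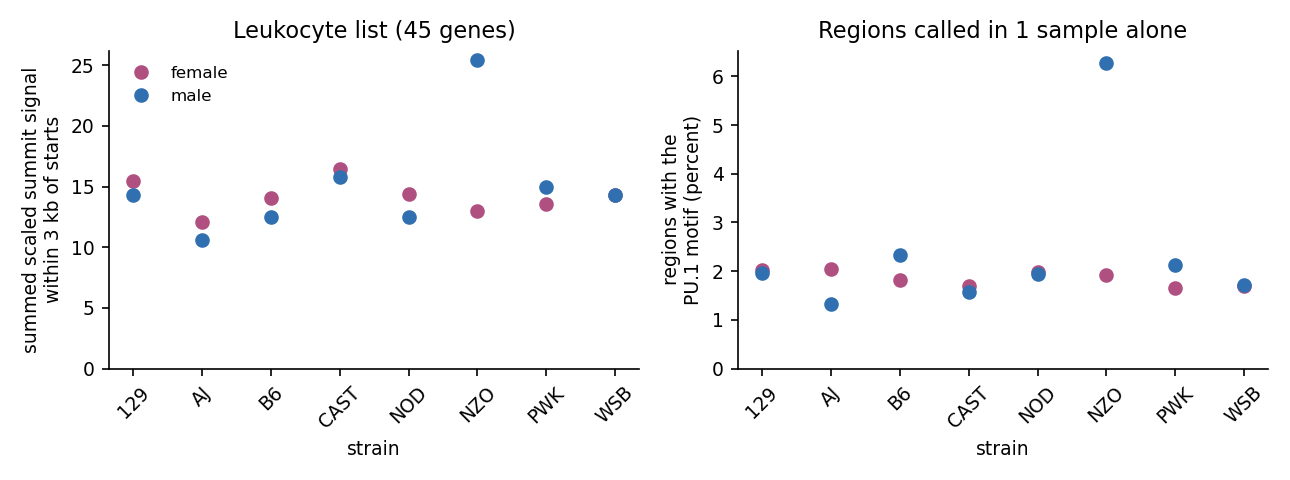
Left, scaled summit signal summed over peaks within 3 kb of the starts of 45 leukocyte genes; right, share of regions called in that sample alone that hold the PU.1 motif, in percent. Each point is 1 sample by strain (x axis) and sex (colour); the NZO male has the highest value in both, 25.5 and 6.28%.

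A part of the members lay close together. In windows of 1 Mb with at least 3 members of a strain lay 62 of 182 members in 129 (34.1%), 66 of 217 in AJ (30.4%), 59 of 223 in NOD (26.5%), 229 of 1121 in NZO (20.4%) and 33 of 393 in B6 (8.40%). Single-strain regions of the wild-derived strains, which were more numerous, lay in such windows in 76.2% for CAST, 60.4% for PWK and 55.6% for WSB. Chromosome 14 alone held 57 of the 129 members (31.3%), although it held 5.35% of the regions called in both 129 samples. NOD had 38 of its 223 members (17.0%) on chromosome 6, with 6.50% of the regions called in both samples, and AJ 30 of 217 (13.8%) on chromosome 13, with 5.36%. No member lay on chromosome 11 or 19 for 129, on 18 for AJ or on 19 for NOD.

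The densest places of 129 were at the start of chromosome 14. The window chr14:6000001-7000000 held 18 members, chr14:4000001-5000000 held 16 and chr14:3000001-4000000 held 7, most of them in predicted genes of a duplicated family, such as Gm26650 with 7 members and Gm2916, which overlaps Gm3002, with 5. Female scaled signals in the first window ran from 0.155 to 0.793 and male signals from 0.116 to 0.377. Shared regions in the same windows were also higher in 129, with a median log2 difference from the mean of the other strains of 1.73 over 10 regions, 1.30 over 10 and 1.27 over 5, and 20 of these 25 passed the limma test as higher and none as lower. Reads that fit several copies of a duplicated gene could be placed in any of them, so values of single copies are uncertain.

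In AJ, 12 members lay within 112 kb in the window chr15:15000001-16000000, 11 in chr13:65000001-66000000 beside vomeronasal receptor pseudogenes, and 8 within 86.2 kb in chr5:84000001-85000000. In the chromosome 5 window members were 8 of the 18 regions called in both AJ samples (44.4%), with no gene beneath them. A further 3 AJ members lay in Nlrp4e, with female values of 0.323 to 0.354 and male values of 0.436 to 0.491, so the male was higher in each.

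NOD members were densest over natural killer cell receptor genes. The window chr6:130000001-131000000 held 14, which included 2 each at Klra9, Klra10, Klra13-ps and Klra14-ps of the Ly49 receptor family, whose copy number differs between inbred strains. Their scaled signals were 0.105 to 0.477 in the female and 0.134 to 0.537 in the male, and the window held no region called in all 16 samples. Another 10 members lay in chr12:87000001-88000000 and 7 in chr7:47000001-48000000, where 2 were at Mrgpra3, an itch receptor gene. The shared regions of these windows had median log2 differences near 0 in NOD, 0.07 over 16 regions and 0.00 over 11.

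In the densest NZO window most regions called in both NZO samples were members. In chr16:61000001-62000000, 20 members lay within 171 kb, with no gene beneath them, and were 71.4% of the 28 regions called in both NZO samples there. Their scaled signals were low and alike in the sexes, from 0.0617 to 0.309 in the female and 0.0545 to 0.236 in the male. Windows chr12:19000001-20000000 and chr12:23000001-24000000 held 13 each.

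Several genes held 3 or more NZO members, a list drawn up after the values were seen. Kcnq5, a voltage-gated potassium channel gene, held 11 with female values of 0.0864 to 0.247 and male values of 0.0727 to 0.400, higher in the male in 7. Ifi203-ps, in the interferon-inducible cluster of chromosome 1, held 6 with medians of 0.167 and 0.300. The 3 members at Ets1, a transcription factor gene that the study counts among those abundant in islets, had medians of 0.185 in the female and 0.491 in the male. Those at Elmo1, an engulfment gene, had 0.173 and 0.364. The male was higher in all 3 members of Ets1, of Elmo1 and of BC018473 and in 2 of 3 of Chd9, beside NZO members as a whole, in which the female was higher in 175 of 1121.

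To ask whether accessibility around members differed as well, the shared region nearest to each member within 50 kb was taken, which the rule did not use. These shared regions were higher in the strain of the members than in the mean of the other 7 strains. Relative to all shared regions, the median log2 difference was 0.42 in AJ (92 regions), 0.18 in B6 (252), 0.16 in NOD (123), 0.12 in 129 (94) and 0.09 in NZO (747). The mean of 0.19 ± 0.13 (SD, n = 5 strains) was positive in 5 of 5, and no other of the 120 pairings of member sets with strains was as far from 0 (exact permutation test, two-sided, p = 0.00833, the smallest possible). Without members in dense windows, an alternative chosen after the data were seen, it was 0.18 with the same p. The 5 contrasts share samples.

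Set by set, the matching strain ranked first in 129, AJ and NZO and second, behind AJ, in B6 and NOD. Shared regions near B6 members had 0.22 in AJ and 0.18 in B6, and those near NOD members 0.23 in AJ and 0.16 in NOD. Near AJ members they had 0.42 in AJ and 0.32 in NOD. In AJ 79 of 92 nearest regions were above 0 and in NZO 404 of 747.

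**Figure D5:**
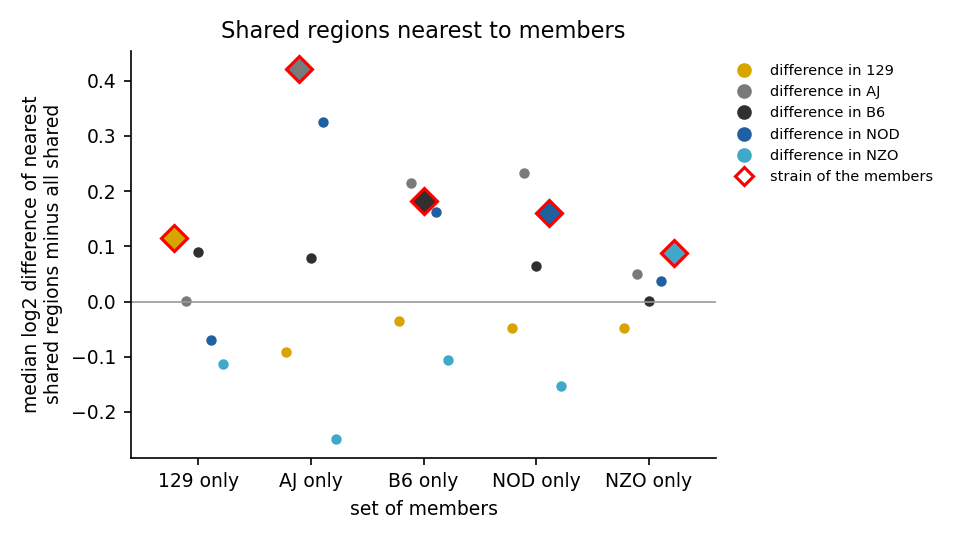
Median log2 difference of the shared regions nearest to members, minus that of all shared regions (y axis), for each set of members (x axis) and each strain against the mean of the other strains (colour). Red diamonds mark the strain of the members; all 5 lie above 0, from 0.09 in NZO to 0.42 in AJ.

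Tested 1 region at a time, most of these nearest regions did not pass, and the share called higher was above the background share in each strain. In 129 14 of 94 (14.9%) passed the limma test as higher and 2 (2.13%) as lower, where 1.32% and 2.71% of all 40940 shared regions did. In AJ 14 of 92 (15.2%) were higher and 1 lower, beside 4.28% and 3.77%. In B6 16 of 252 (6.35%) were higher and 1 lower, beside 1.69% and 1.87%. In NOD 12 of 123 (9.76%) were higher and 7 lower, beside 1.89% and 1.59%. In NZO 42 of 747 (5.62%) were higher and 22 lower (2.95%), beside 2.87% and 3.47%. Calls used adjusted p-values under 0.05 from limma. Their number over all shared regions fell when either sample of the strain was left out, except in NZO, where it rose without the female. Such a fit leaves 1 sample in the strain, and the calls thus depend on which samples are kept. Without centring, the higher and lower calls over all shared regions were 29 and 309 in 129, 71 and 3039 in AJ, 74 and 49 in B6, 155 and 37 in NOD and 40 and 65 in NZO, beside 539 and 1109, 1752 and 1543, 690 and 765, 772 and 652, and 1177 and 1421 with it.

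Named examples went in both directions. At chr14:6035501-6037795, 414 bases from the start of Gm8206, the scaled signal was 12.3 in the 129 female, 15.3 in the 129 male and 0.140 to 17.9 in the other samples with a median of 2.17 (log2 difference 2.78 ± 0.20 SE, limma adjusted p = 7.57e-06). The 129 values thus overlapped the highest of the others. At chr4:145773814-145775262, over the start of Gm13243, NOD had 10.7 and 11.4 and the others at most 5.80, with no overlap, and a NOD member began 352 bases away (log2 difference 1.83 ± 0.19 SE, limma adjusted p = 9.07e-05).

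In B6 the nearest region in Fmn2, a formin gene, had 4.19 and 5.22 against 1.48 to 3.14 in the others (log2 difference 1.24 ± 0.19 SE, limma adjusted p = 0.00265). In NZO the nearest region at chr5:43172243-43173077 had 2.78 in both samples against 0.453 to 1.17 (log2 difference 1.79 ± 0.18 SE, limma adjusted p = 0.000223). Lower shared regions also lay beside members. At Gm44247 AJ had 0.431 and 0.218 against 0.292 to 3.05 in the others with a median of 1.30 (log2 difference −1.92 ± 0.23 SE, limma adjusted p = 0.000696). The AJ female thus lay within the range of the others. In Gm47849 NZO had 0.605 and 0.382 against 0.302 to 2.86 with a median of 2.07 (log2 difference −1.59 ± 0.22 SE, limma adjusted p = 0.00181). Both NZO values lay within the range of the others.

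Few members lay at genes of the fixed lists, and lists differed in how their share compared with all merged regions. With the nearest start within 50 kb, 1 member was at a beta cell gene, 0.0468% of members against 0.0814% of all regions, and it lay in an intron of G6pc2, the islet glucose-6-phosphatase, in 129 with 0.345 in the female. The type 2 diabetes list had 7 members (0.328%, against 0.238%), of which 6 were of NZO. They included introns of Zmiz1 and Adamts9 and a site 14.969 kb from Rasgrp1 in NZO, with female values of 0.321, 0.247 and 0.173, and an intron of Tle1 in 129 with 0.172. The mouse diabetes list had 1 (0.0468%, against 0.0751%), in an intron of Ifi202b in 129.

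The other lists had from 1 to 3 members each, and their shares were above those over all merged regions on these few members. They were 0.140% of members against 0.0661% of all regions for leukocyte genes, 0.0936% against 0.0443% for interferon and antigen presentation genes, 0.0936% against 0.0374% for acinar genes, 0.0936% against 0.0411% for endothelial and stromal genes, 0.0468% against 0.0308% for duct genes and 0.0468% against 0.0210% for alpha, delta and PP cell genes. The leukocyte list had 3, which were Bach2 with 2 members in NZO and Il2ra, the interleukin 2 receptor gene, in B6 with summit signals of 14 and 20, 1.709 kb from its start. The interferon list included an intron of Ciita, the regulator of class II antigen presentation genes, in NZO with signals of 16 and 15. The acinar list had Try4 in B6, 0.07 kb from its start with 9 and 16, and Pnlip in NZO, the endothelial and stromal list Acta2 and Flt1 in NZO, the duct list Cftr in NOD, and the list of other endocrine cells Gc in B6. Counted over gene bodies with 3 kb on either side instead, the leukocyte list had 7 members (0.328%, against 0.0975% of all regions).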

How the data were processed

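ATAC-seq was performed on islets of 8 strains, 1 female and 1 male sample each. Per the methods of the study and the submitters' processing notes, the authors trimmed adapters (cutadapt 2.0), aligned read pairs to mm10 (Bowtie2 2.3.4.1), removed duplicates (Picard 2.9.2), and called peaks per sample with MOSAiCS (false discovery rate 0.05). Whether read ends were shifted for the transposase cut is not given in the sources used here. The deposited lists hold summit signal, not scaled to depth, and a −log10 p-value of each peak. The authors also deposited, per strain, lists with an irreproducible discovery rate on a −log10 scale and summed summit signal. The deposited mean signal does not say what it averages and served as an alternative alone.

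Here, overlapping peaks on chromosomes 1 to 19 were merged, and the highest summit in a region was a sample's signal, divided by the sample's median over 40940 regions called in all 16 samples. Those regions were tested with limma 3.58.1 (R 4.3.3) on log2(signal + 1), centred on each sample's median, each strain against the mean of the other 7, with Benjamini-Hochberg adjustment over all regions and calls under 0.05. On this scale changes of faint regions are understated. All other printed p-values are exact permutation tests over strains. The fits and the motif search were tested on simulated data first. GENCODE M21 and RefSeq GRCm38 gave genes and sequence, and the last peak base of every chromosome lay within the reference. Per strain, the text names the 4 members with the highest lower scaled signal, members at listed genes, the up to 3 densest windows, and shared regions from the 3 neighbours with the smallest limma adjusted p. Genes with 3 or more members, motif shares by sample, shared runs and single marker genes were added after the data were seen. The members, lists and motifs were chosen with earlier results of these data known. Sex was kept out of the strain model, after the methods of the study. Female to male deviations correlated with a median of 0.007 over 28 pairs of strains, from −0.476 to 0.389, with 8 above 0.1. Single pairs of strains thus deviated together or in opposite ways. Chromosomes X and Y were not analysed here. Some items that these rules name are not reported here.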

Additional observations from a re-analysis of the deposited data

Results flagged for a closer look

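For each of 13 measures the 5 classical strains were compared, and a strain was picked out where its gap to the nearest other strain was large for the range of the 5. This occurs by chance in about 1 in 20 groups. It occurred for 3 measures. NZO had 1121 members where the nearest strain had 393. The rank correlation between the female and male signal of members was 0.247 in NZO, below the 0.482 of the nearest strain. The shared regions nearest to AJ members differed by 0.42 on the log2 scale in AJ, above the 0.18 of B6. The cause of each was not tested.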

How the results depend on the processing

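The neighbour difference kept its sign and stayed under 0.05 under other distances, pseudocounts, mean signal and stricter or equal lists, with p at most 0.0167, and centring cannot change it by construction; leaving out 1 sample gave 0.160 to 0.217. The promoter difference ran from −24.2 to −20.3 percentage points under other windows and lists, each further from 0 than the −19.5 reported, and −20.3 to −18.6 without 1 strain. The female to male ratio stayed unseparated from 0.

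Member counts moved with the lists. Peaks at or above each list's median −log10 p gave 25 in 129, 49 in AJ, 194 in B6, 107 in NOD and 256 in NZO, and requiring it of the strain's own peaks alone gave 6, 6, 12, 11 and 19. Equal lists gave 299 in 129, 400 in AJ, 523 in NOD and 669 in NZO. Merging across 1000 bases gave 94 in 129 and 137 in NOD, and the strain lists gave 729 in B6, 708 in NOD and 130 in NZO. Leaving out 1 sample or 1 sex gave 187 to 5293 in 129, 223 to 5487 in AJ, 396 to 9812 in B6, 229 to 3408 in NOD and 1135 to 39914 in NZO, the highest where a strain's own absent sample no longer had to have a peak.

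Shared regions called by limma numbered 338 in 129, 123 in B6, 192 in NOD and 105 in NZO without centring, against 1648, 1455, 1424 and 2598 with it. With a peak in at least 12 samples they numbered 3030 in 129, 6392 in AJ, 2198 in B6 and 3188 in NOD. Leaving out 1 sample gave 52 to 3422 in 129, 127 to 7645 in AJ, 148 to 2933 in B6, 121 to 2991 in NOD and 89 to 9344 in NZO. The lowest came without a sample of the strain itself. A replicate block for sex gave 1267, 2787, 1282, 1236 and 2124 calls in 129, AJ, B6, NOD and NZO.

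Between classical and wild-derived sets, the more significant peaks of each list turned the sign for distance to a start (−0.117 kb), width (119 bases), GC (−0.178 points), CpG-rich share (3.59 points) and repeat share (4.02 points), and equal lists for GC (−0.133). Leaving out 1 strain gave −0.801 to 1.74 kb, −74.3 to 25.7 bases, 0.467 to 1.63 points of GC (p = 0.0476 without CAST in an exact permutation test, unadjusted), −1.48 to 0.298 points of CpG-rich windows and −6.89 to 5.55 points of repeats.

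Over gene bodies, members numbered 2 for the other endocrine list, 1 acinar, 2 duct, 1 endothelial and stromal, 7 leukocyte and 3 mouse diabetes. Read totals of single samples were not used here, and a missing peak says only that the threshold was not passed. The cause of each change was not tested.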
